A study of Mus musculus with 20 samples.

Results

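The secreted factors of the TGF-beta family, their TGF-beta receptors and a classical response gene were followed through sorted cells of 2 mouse mammary tumours. The 10 genes were taken as a fixed list from the 52783 genes of the count table, by matching Ensembl identifiers to mouse symbols, and all 10 were found. They are the ligand genes Tgfb1 (ENSMUSG00000002603), Tgfb2 (ENSMUSG00000039239), Tgfb3 (ENSMUSG00000021253), Inhba (ENSMUSG00000041324), Bmp2 (ENSMUSG00000027358), Bmp4 (ENSMUSG00000021835) and Bmp7 (ENSMUSG00000008999), the receptor genes Tgfbr1 (ENSMUSG00000007613) and Tgfbr2 (ENSMUSG00000032440), and Tgfbi (ENSMUSG00000035493), which codes for a matrix protein named for its induction by TGF-beta. The list holds no activin or BMP receptor. Those receptors were examined in a separate list of pathway genes.

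66cl4 and 67NR are cell lines of the 4T1 mouse breast cancer model, of which 66cl4 spreads to distant organs and 67NR does not. Female BALB/cJ mice with an intact immune system received 1000000 cells of either line in the mammary fat pad, with no further treatment. The primary tumours were dissociated and sorted by CD45, the surface phosphatase of leukocytes that Ptprc encodes. The 4 groups were 66cl4 CD45-, 66cl4 CD45+, 67NR CD45- and 67NR CD45+ cells, with 5 libraries in each and 10 mice in all, and each tumour gave a library to both gates. Each tumour type stands for 1 cell line, and the CD45- gate holds cancer cells together with stromal cells of the host.

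TGF-beta ligands are secreted in a latent form and, once released, bind TGFBR2, which recruits and phosphorylates TGFBR1, and SMAD2 and SMAD3 carry the signal to the nucleus. Activins, dimers of the inhibin beta subunit encoded by Inhba, use activin receptors and the same pair of SMADs, whereas BMPs use their own receptors and SMAD1, SMAD5 and SMAD9. In tumours the pathway is known for restraining epithelial growth, for driving matrix production and invasion, and for dampening the immune response.

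Total estimated counts ran from 12960000 to 28080314 per library. The recorded cell type contradicts the title for both libraries of 66cl4 animals 5 and 6. Libraries were grouped by title, under which Ptprc was higher in the CD45+ library of all 10 mice. Fibroblast markers summed to 8678 to 13347 normalised read counts in 66cl4 and to 13870 to 21193 in 67NR CD45- libraries. Dpt differed most in mean (35.7 in 66cl4, against 4261 in 67NR), whereas Pdgfra and Pdgfrb had higher means in 66cl4. Epithelial markers summed to 6057 to 6844 in 66cl4 but 124.5 to 391 in 67NR CD45- libraries. The epithelial sum of 66cl4 was mostly Krt8 (mean 5353, against 61.6 in 67NR) and Krt18 (1149, against 58.6). Krt14 also had a higher mean in 66cl4 CD45- libraries, whereas Epcam, Cdh1 and Krt5 had lower means. Mast cell markers summed to 522 to 15621 in 67NR CD45- libraries and to 18.6 to 63.9 in those of 66cl4. The part of fibroblasts, epithelial cells and mast cells in the differences that follow was not tested. Levels are normalised read counts, that is estimated counts divided by the library's DESeq2 size factor, and values are listed in the order of animals 3, 4, 5, 6 and 7 for 66cl4 and 1, 4, 5, 6 and 7 for 67NR. A gene was called when edgeR's quasi-likelihood test gave a Benjamini-Hochberg adjusted p-value under 0.05 over all genes tested and an absolute log2 fold change over 1. The plot of levels by library shows the members in the 20 libraries.

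**Figure D1:**
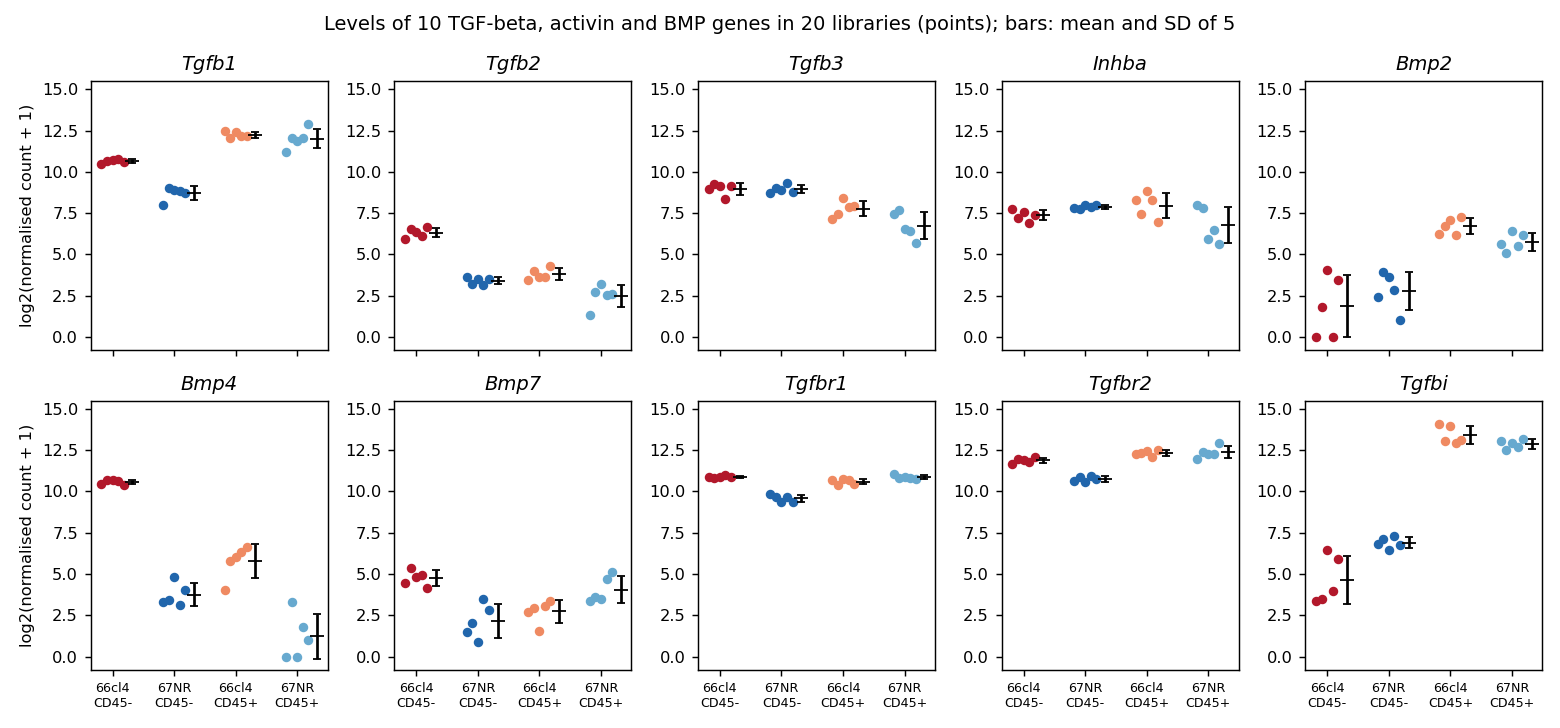
Normalised read counts of the 10 genes on a log2(count + 1) axis, 1 point per library, in 66cl4 CD45-, 67NR CD45-, 66cl4 CD45+ and 67NR CD45+ cells, with the mean and SD of the 5 log2 values beside the points. Bmp4 stands at 1332 to 1648 in 66cl4 CD45- cells and at 99.7 or less in the other groups, and Tgfbi stands at 5758 or more in both CD45+ groups and at 159 or less in both CD45- groups.

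The comparison of CD45- cells asked which of these signals differ outside the leukocyte gate between a metastatic and a non-metastatic tumour. Bmp4, Tgfb2, Bmp7, Tgfb1 and both TGF-beta receptor genes were higher in 66cl4 than in 67NR CD45- cells, from 111-fold for Bmp4 to 2.20-fold for Tgfbr2 as ratios of the mean levels. Tgfbi was lower. Tgfb3 and Inhba were not called, and Bmp2 had too few counts to be tested. Of the 9 members tested, 6 were called higher and 1 lower, against a background of 32.2% called among 14844 genes, of which 13.2% were higher and 18.9% lower. The median log2 fold change was 1.32 over the 9 members and -0.01 over all genes tested. Fewer cells of a type and less RNA per cell cannot be told apart in these bulk libraries, here or in any comparison that follows.

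Bmp4, a ligand that signals through SMAD1, SMAD5 and SMAD9, had the largest difference of the members. Its normalised read counts were 1412, 1648, 1640, 1594 and 1332 in 66cl4 CD45- cells (mean 1525 ± 144, SD, n = 5). In 67NR CD45- cells they were 8.78, 9.75, 27.2, 7.81 and 15.3 (mean 13.8 ± 8.06, SD, n = 5). Every 66cl4 library lay far above every 67NR library, and the log2 fold change was 6.84 (SE 0.244, edgeR adjusted p = 4.67e-11). Tgfb2, the TGF-beta isoform best known from heart and palate development, had 61.0, 91.6, 80.8, 68.0 and 99.8 in 66cl4 CD45- cells (mean 80.2 ± 16.1, SD, n = 5). In 67NR CD45- cells it had 11.4, 8.25, 10.5, 7.81 and 10.2 (mean 9.65 ± 1.54, SD, n = 5). The groups did not overlap, and the log2 fold change was 3.09 (SE 0.225, edgeR adjusted p = 3.24e-08).

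Tgfb1, the isoform most abundant in leukocytes and platelets, had 1453, 1627, 1674, 1770 and 1562 in 66cl4 CD45- cells (mean 1617 ± 119, SD, n = 5). Its levels in 67NR CD45- cells were 254.5, 526, 475, 466 and 421 (mean 429 ± 104, SD, n = 5). The lowest 66cl4 library was thus well above the highest 67NR library, with a log2 fold change of 1.95 (SE 0.154, edgeR adjusted p = 9e-08). Bmp7, a BMP studied in kidney and bone, was scarce, with 21.2, 40.5, 26.6, 29.7 and 17.0 in 66cl4 CD45- cells. It had 1.75, 3.0, 0.878, 10.2 and 6.14 in 67NR CD45- cells. The groups did not overlap, with a log2 fold change of 2.64 (SE 0.471, edgeR adjusted p = 0.000203).

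Tgfb3, the third TGF-beta isoform, showed no separation, with 331 to 617 in 66cl4, against 420 to 648 in 67NR CD45- cells and a log2 fold change of 0.07 (SE 0.159, edgeR adjusted p = 0.725). Inhba had 121 to 212 in 66cl4, against 211 to 252 in 67NR CD45- cells. Its ranges overlapped by a single pair of libraries, and its log2 fold change of -0.45 (SE 0.142, edgeR adjusted p = 0.0125) was below the fold threshold. Bmp2 had 0 to 15.8 in 66cl4, against 1.02 to 14.2 in 67NR CD45- cells, levels too low for the filter. In a fit of all 20 libraries its log2 fold change was -0.34 (SE 0.682, edgeR adjusted p = 0.693).

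Both receptor genes were higher in 66cl4 CD45- cells. Tgfbr2, the ligand-binding receptor, had 3262, 3988, 3823, 3554 and 4331 in 66cl4 (mean 3792 ± 408, SD, n = 5) and 1550, 1903, 1509, 1948 and 1706 in 67NR CD45- cells (mean 1723 ± 199, SD, n = 5). The groups did not overlap, and the log2 fold change was 1.17 (SE 0.101, edgeR adjusted p = 1.74e-07). Tgfbr1, the receptor kinase that phosphorylates the SMADs, had 1837, 1777, 1901, 2009 and 1853 in 66cl4 (mean 1875 ± 86.8, SD, n = 5). Its levels were 930, 796, 657, 792 and 652.5 in 67NR CD45- cells (mean 765.5 ± 115.5, SD, n = 5). The 66cl4 libraries again stood apart, with a log2 fold change of 1.32 (SE 0.101, edgeR adjusted p = 5.01e-08). Among the 14844 genes tested in CD45- cells, 52.9% had groups that did not overlap, and 7 of the 9 members tested did.

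Tgfbi ran the other way in CD45- cells. It had 9.29, 9.98, 84.9, 14.9 and 58.9 in 66cl4 (mean 35.6 ± 34.5, SD, n = 5) and 112, 137, 86.9, 159 and 105 in 67NR CD45- cells (mean 120 ± 28.4, SD, n = 5). The highest 66cl4 library nearly reached the lowest 67NR library, and the log2 fold change was -1.71 (SE 0.557, edgeR adjusted p = 0.0185). The call was lost with no filter on low counts (-1.68, adjusted p = 0.0622). The summed level of the macrophage markers Adgre1, Csf1r, C1qa, C1qb and Mrc1 followed the order of Tgfbi over the animals in 66cl4 but not in 67NR CD45- cells. In 66cl4 that sum was 94.2, 168, 1523, 234 and 618, highest in animals 5 and 7 as Tgfbi was. In 67NR CD45- cells it was 1393, 3507, 1200, 1524 and 965, highest in animal 4, whereas Tgfbi was highest in animal 6. All 5 of these markers were above 3 counts in some library of each CD45- group, 2 of the 5 were called lower in 66cl4, and their part in the Tgfbi difference was not tested.

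The promoters of 4 of the 6 members that were higher in 66cl4 CD45- cells are given here, those of the ligands with the largest differences, Bmp4 and Tgfb2, and of both receptors, because they moved in the same direction. RefSeq sequences of 250 bases before to 50 bases after the gene start (build GRCm38.p6) were matched for 7 of the 10 members. Tgfb3, Bmp2 and Bmp7 had no match. Capitals mark letters found on either strand that spell CAGAC, the core of SMAD-binding elements, GGGCGG, the GC box bound by SP1, or TATAAA, the TATA box. The 3 motifs were held by 49.6%, 35.7% and 13.6% of 32851 mouse promoters of the same length. Tgfb2 (chr1:186705940-186706239, minus strand), Bmp4 (chr14:46390620-46390919, minus strand), Tgfbr1 (chr4:47352972-47353271, plus strand) and Tgfbr2 (chr9:116175314-116175613, minus strand) read, 5′ to 3′:
Tgfb2: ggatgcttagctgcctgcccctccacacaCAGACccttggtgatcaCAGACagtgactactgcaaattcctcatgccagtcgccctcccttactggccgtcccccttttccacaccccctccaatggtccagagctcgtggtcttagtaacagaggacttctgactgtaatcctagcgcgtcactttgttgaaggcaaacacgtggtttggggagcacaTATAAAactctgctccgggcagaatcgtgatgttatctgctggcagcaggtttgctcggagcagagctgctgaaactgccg
Bmp4: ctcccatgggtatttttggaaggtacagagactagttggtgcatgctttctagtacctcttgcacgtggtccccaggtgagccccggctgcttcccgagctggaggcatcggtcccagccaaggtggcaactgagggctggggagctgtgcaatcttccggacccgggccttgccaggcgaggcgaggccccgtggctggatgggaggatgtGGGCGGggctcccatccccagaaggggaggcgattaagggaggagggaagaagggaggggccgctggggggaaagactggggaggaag
Tgfbr1: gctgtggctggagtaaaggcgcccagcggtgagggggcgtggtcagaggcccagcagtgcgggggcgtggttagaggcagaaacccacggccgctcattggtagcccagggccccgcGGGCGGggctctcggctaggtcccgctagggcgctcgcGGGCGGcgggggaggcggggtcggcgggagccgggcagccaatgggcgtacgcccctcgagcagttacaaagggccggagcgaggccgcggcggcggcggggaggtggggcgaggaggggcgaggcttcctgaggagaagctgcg
Tgfbr2: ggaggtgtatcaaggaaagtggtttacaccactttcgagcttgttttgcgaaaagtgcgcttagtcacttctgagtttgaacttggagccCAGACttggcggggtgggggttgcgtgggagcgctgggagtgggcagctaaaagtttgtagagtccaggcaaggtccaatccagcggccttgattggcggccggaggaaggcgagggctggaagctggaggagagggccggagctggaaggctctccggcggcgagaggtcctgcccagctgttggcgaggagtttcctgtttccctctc
No motif was shared by all 4 of these promoters. Tgfb2 held 2 SMAD cores and 1 TATA box, Tgfbr2 held 1 SMAD core, Tgfbr1 held 2 GC boxes and Bmp4 held 1 GC box. The promoter of Tgfbi, which went the other way, held 2 SMAD cores and 2 GC boxes. That of Tgfb1, also higher in 66cl4 CD45- cells but not printed, held 6 GC boxes, and that of Inhba held 1 TATA box. A match describes the letters of the window only.

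The same comparison in CD45+ cells asked whether leukocytes of a metastatic tumour express these genes at other levels. Bmp4 was the only member called, higher in 66cl4, among 8 tested, against a background of 11.8% called among 14676 genes, 5.01% higher and 6.82% lower. The median log2 fold change was 0.77 over the 8 members and 0.01 over all genes. Leukocyte markers differed between the tumours in this gate. Neutrophil marker sums were 41783 to 116886 for 66cl4, against 6700 to 48103 for 67NR, with 4 of 5 markers called higher. Mast cell marker sums were 1378 to 3761 for 66cl4, against 17267 to 23966 for 67NR, with 4 of 5 called lower. Of the macrophage markers 1 of 5 was called lower, and no T cell marker was called. The part of leukocyte types in the differences that follow was not tested. Tgfb2 and Bmp4 are among the genes that the study itself listed for its enriched terms from these samples, so their direction here is not independent evidence.

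Bmp4 had 15.3, 53.5, 64.6, 80.0 and 99.7 in 66cl4 CD45+ cells (mean 62.6 ± 31.6, SD, n = 5) and 0, 8.79, 0, 2.40 and 1.03 in 67NR CD45+ cells (mean 2.44 ± 3.68, SD, n = 5). All 66cl4 libraries lay above all 67NR libraries, with a log2 fold change of 4.59 (SE 0.755, edgeR adjusted p = 0.00156) whose size rests on at most 8 counts per 67NR library. The level in 66cl4 CD45+ cells was 4.11% of that in CD45- cells of the same tumours. For the 7 fibroblast markers Pdgfra, Pdgfrb, Dcn, Lum, Col1a1, Col3a1 and Dpt, the corresponding share was 4.03 to 45.4% (median 6.52%). For the 6 epithelial markers Epcam, Cdh1, Krt8, Krt18, Krt5 and Krt14 it was 5.09 to 1893% (median 63.5%), with Krt18 the lowest and Cdh1 the highest. Krt8 had 5.53% and Krt14 9.91%, whereas Epcam and Krt5 had 142% and 117%. The summed fibroblast markers ran from 182 to 1308 in 66cl4 and from 888 to 3780 in 67NR CD45+ cells, none of the 7 was at or below 3 counts throughout a group, and 3 of the 7 were called lower in 66cl4. The summed epithelial markers ran from 623 to 946 in 66cl4 and from 261 to 320 in 67NR CD45+ cells, 2 of the 4 tested were called higher in 66cl4, and Krt5 in both groups and Krt14 in 67NR did not exceed 3 counts. Cdh1 held the largest part of that sum (means 394 in 66cl4 and 227 in 67NR CD45+ cells), and it was higher in CD45+ than in CD45- cells of both tumours. Krt8 had means of 296 and 10.4, Krt18 58.4 and 6.88, and Epcam 17.2 and 33.0. The part of CD45- RNA in the Bmp4 signal of the CD45+ gate was not tested.

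Tgfb1 was abundant in CD45+ cells of both tumours, with 5719, 4166, 5382, 4587 and 4694 in 66cl4 and 2393, 4205, 3814, 4175 and 7531 in 67NR. The 67NR libraries spanned the whole 66cl4 range, and the log2 fold change was 0.18 (SE 0.226, edgeR adjusted p = 0.622). Tgfbr2 likewise overlapped, with 4272 to 5882 in 66cl4, against 4022 to 7941 in 67NR (log2 fold change -0.06, SE 0.16, edgeR adjusted p = 0.841). Tgfbr1 had 1348 to 1692 in 66cl4, against 1753 to 2121 in 67NR CD45+ cells. Those ranges did not overlap, as was so for 15.1% of all genes in this comparison, and the log2 fold change of -0.26 (SE 0.111, edgeR adjusted p = 0.12) did not pass the test. Tgfbi had 7931 to 16957 in 66cl4, against 5758 to 9278 in 67NR CD45+ cells (log2 fold change 0.61, SE 0.236, edgeR adjusted p = 0.0862).

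Inhba, Tgfb3 and Bmp2 had mean levels 1.90-fold to 2.01-fold higher in 66cl4 than in 67NR CD45+ cells, with overlapping libraries and no call. Inhba had 309, 172, 449, 309 and 122 in 66cl4 and 256, 223, 60.0, 89.9 and 48.4 in 67NR (log2 fold change 1.0, SE 0.523, edgeR adjusted p = 0.203). Tgfb3 had 143 to 340 in 66cl4, against 50.4 to 203 in 67NR (log2 fold change 0.92, SE 0.373, edgeR adjusted p = 0.1), and without 67NR CD45+ animal 4 it was called at 1.20 (adjusted p = 0.0456). For both genes animals 1 and 4 were the highest of the 67NR CD45+ libraries. Those libraries also had the highest summed fibroblast markers of the group (2814 and 3780, against 888 to 1723). The same held for the neutrophil markers (48103 and 25986, against 6700 to 15826), and the part of either cell type was not tested. Bmp2, the BMP best known from bone and heart, had 75.1, 106, 133, 72.6 and 154 in 66cl4 and 48.4, 33.0, 83.3, 44.3 and 70.0 in 67NR CD45+ cells. Its log2 fold change of 0.97 (SE 0.293, edgeR adjusted p = 0.0333) lay just under the fold threshold. It passed at 1.04 to 1.16 (adjusted p = 0.0243 to 0.0378) without 66cl4 animal 3 or 6 or without 67NR animal 5 or 7.

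Tgfb2 and Bmp7 were below the count filter of the CD45+ comparison. Tgfb2 had 9.74 to 18.6 in 66cl4, against 1.56 to 8.13 in 67NR CD45+ cells. In the fit of all 20 libraries it was higher in 66cl4 (log2 fold change 1.38, SE 0.307, edgeR adjusted p = 0.00203). Bmp7 had 5.56, 6.69, 1.93, 7.36 and 9.30 in 66cl4 and 9.36, 11, 10.2, 25.2 and 34.0 in 67NR CD45+ cells. The order was the reverse of that in CD45- cells, the groups were only just separate, and the fit of all 20 libraries gave a log2 fold change of -1.50 (SE 0.514, edgeR adjusted p = 0.0325). In fits of the CD45+ libraries alone, neither was called with no filter (adjusted p = 0.0738 for Tgfb2 and 0.0556 for Bmp7), and Bmp7 was called with a filter of at least 10 counts in 5 libraries (-1.49, adjusted p = 0.0439).

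**Figure D2:**
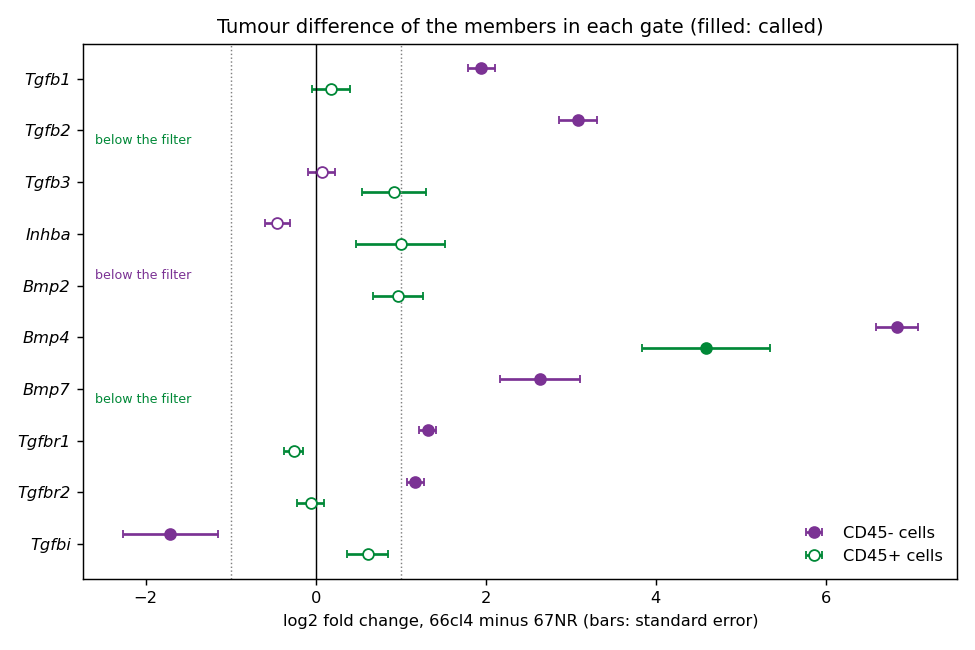
Log2 fold change of each member, 66cl4 minus 67NR, in CD45- cells (purple) and CD45+ cells (green), with standard errors from edgeR's fit on 5 libraries a group. Filled points were called, dotted lines mark an absolute log2 fold change of 1, and members without a point were below the count filter. Tgfb1, Tgfbr1 and Tgfbr2 lie above 1 in CD45- cells and near 0 in CD45+ cells.

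An interaction term fitted to all 20 libraries tested whether the tumour difference of a member was unequal in the 2 gates, and here an adjusted p-value under 0.05 alone made a call. Of the 10 members 7 were called, against a background of 43.1% among 16453 genes, 21.9% with a larger and 21.2% with a smaller log2 fold change in CD45+ cells. The value is the log2 fold change in CD45+ cells minus that in CD45- cells. The difference was negative for 5 members, Bmp7 (-4.13, SE 0.726, edgeR adjusted p = 0.000138), Tgfb1 (-1.78, SE 0.31, adjusted p = 0.000127), Tgfb2 (-1.70, SE 0.414, adjusted p = 0.00259), Tgfbr1 (-1.57, SE 0.141, adjusted p = 3.29e-08) and Tgfbr2 (-1.23, SE 0.207, adjusted p = 9.09e-05). It was positive for Tgfbi (2.32, SE 0.59, adjusted p = 0.00379) and Inhba (1.48, SE 0.546, adjusted p = 0.0348). The sizes for Bmp7 and Tgfb2 are not firm. Bmp7 had 1 to 13 counts per 67NR CD45- library and 2 to 11 per 66cl4 CD45+ library, and Tgfb2 had 1 to 8 per 67NR CD45+ library.

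The call of Inhba was fragile. It was lost in 14 of the 20 fits that left out a library, and without 66cl4 animals 5 and 6 the difference was 1.02 (edgeR adjusted p = 0.233). Bmp4, with a large difference between tumours in both gates, was not called in the interaction (-2.21, SE 1.02, edgeR adjusted p = 0.086). It was called without 67NR CD45- animal 5 (-2.65, adjusted p = 0.0369) or 67NR CD45+ animal 5 (-2.56, adjusted p = 0.0497), and by DESeq2 (-2.15, adjusted p = 0.00755). Tgfb3 was not called (0.89, SE 0.417, adjusted p = 0.0905) except without 67NR CD45+ animal 4 (1.18, adjusted p = 0.0225). Bmp2 was not called (1.31, SE 0.856, adjusted p = 0.225).

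The comparison of gates asked in which cells of a tumour each gene is expressed. It uses the libraries of the tumour comparisons again, so the values below stand beside those above and do not add to them. In both tumours Tgfbi, Tgfb1 and Bmp2 were higher in CD45+ cells and Tgfb3 was higher in CD45- cells. In 66cl4 tumours 3 members were called higher and 4 lower in CD45+ cells of 10 tested, against a background of 44.4% called among 14916 genes, 23.9% higher and 20.5% lower. In 67NR tumours 5 were called higher and 1 lower of 7 tested, against 39.8% called among 15063 genes, 20.2% higher and 19.6% lower. The median log2 fold change of the members tested was 0.06 in 66cl4 and 1.66 in 67NR tumours, where the medians over all genes were 0 and -0.05.

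Tgfbi had the widest separation of the members. In 66cl4 CD45+ cells it had 16957, 8398, 15655, 7931 and 8672 (mean 11523 ± 4399, SD, n = 5), 324-fold the level in CD45- cells. In 67NR CD45+ cells it had 8653, 5758, 7820, 6558 and 9278 (mean 7613 ± 1453, SD, n = 5), 63.3-fold the level in CD45- cells. The log2 fold changes were 8.28 (SE 0.668, edgeR adjusted p = 3.81e-07) and 5.98 (SE 0.21, adjusted p = 4.03e-09). The level of Tgfbi in CD45- cells was 0.309% of that in CD45+ cells in 66cl4 and 1.58% in 67NR tumours. The corresponding shares of the 5 macrophage markers were 0.754 to 1.31% and 1.94 to 2.71%. Tgfbi was thus below all 5 markers in both tumours on this measure.

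Tgfb1 was higher in the CD45+ library of its own tumour in 10 of 10 animals, by 3.04-fold in 66cl4 (log2 fold change 1.57, SE 0.106, edgeR adjusted p = 4.79e-08) and by 10.3-fold in 67NR tumours (3.36, SE 0.291, adjusted p = 1.63e-06). Its level in CD45- cells was 32.9% of the CD45+ level in 66cl4 and 9.69% in 67NR tumours. Both shares exceed those of the macrophage markers given above. In 66cl4 tumours the shares of neutrophil, T cell and mast cell markers were 0.174 to 2.21%, 0.188 to 1.08% and 0.637 to 5.8%. In 67NR tumours they were 1.53 to 35.4%, 0.637 to 2.84% and 22.4 to 35.1%, so all 5 mast cell markers were above Tgfb1 there. The part of leukocyte RNA in the Tgfb1 level of CD45- cells was not tested. Bmp2 was higher in CD45+ cells in 10 of 10 animals, with log2 fold changes of 4.14 in 66cl4 (SE 0.631, edgeR adjusted p = 8.74e-05) and 2.85 in 67NR tumours (SE 0.471, adjusted p = 0.000229), and its CD45- level was at 0 in 2 of the 66cl4 libraries.

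Bmp4, Tgfb2 and Tgfb3 were higher in the CD45- library in 10 of 10 animals. Log2 fold changes in 66cl4 tumours, CD45+ minus CD45-, were -4.60 for Bmp4 (SE 0.336, edgeR adjusted p = 1.67e-07), -2.58 for Tgfb2 (SE 0.237, adjusted p = 6.92e-07) and -1.19 for Tgfb3 (SE 0.229, adjusted p = 0.00046). In 67NR tumours Tgfb3 had -2.06 (SE 0.337, adjusted p = 0.000231), while Bmp4 and Tgfb2 were below the filter. The fit of all 20 libraries gave -2.35 for Bmp4 (SE 0.708, edgeR adjusted p = 0.00637) and -0.85 for Tgfb2 (SE 0.312, adjusted p = 0.0255), the latter under the fold threshold.

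Bmp7 and the receptors differed between gates in a way that depended on the tumour. Bmp7 was lower in CD45+ cells of 5 of 5 66cl4 tumours (log2 fold change -2.14, SE 0.373, edgeR adjusted p = 0.000204) and higher in CD45+ cells of 5 of 5 67NR tumours (2.02, SE 0.524, adjusted p = 0.00198, in the fit of all 20 libraries). Tgfbr1 had log2 fold changes of -0.31 in 66cl4 (SE 0.0872, edgeR adjusted p = 0.00666, under the fold threshold) and 1.28 in 67NR tumours (SE 0.12, adjusted p = 2.72e-06). Tgfbr2 had 0.42 in 66cl4 (SE 0.116, edgeR adjusted p = 0.00577, under the fold threshold) and 1.66 in 67NR tumours (SE 0.161, adjusted p = 3.81e-06). As the tests share their libraries with the interaction above, they restate it from the side of the gates. Inhba was not called in 66cl4 (0.66, SE 0.304, adjusted p = 0.0677) or 67NR tumours (-0.79, SE 0.424, adjusted p = 0.121). Without 67NR CD45+ animal 1 or 4 it was called lower in CD45+ cells of 67NR tumours (-1.14, adjusted p = 0.0242, and -1.06, adjusted p = 0.0477).

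**Figure D3:**
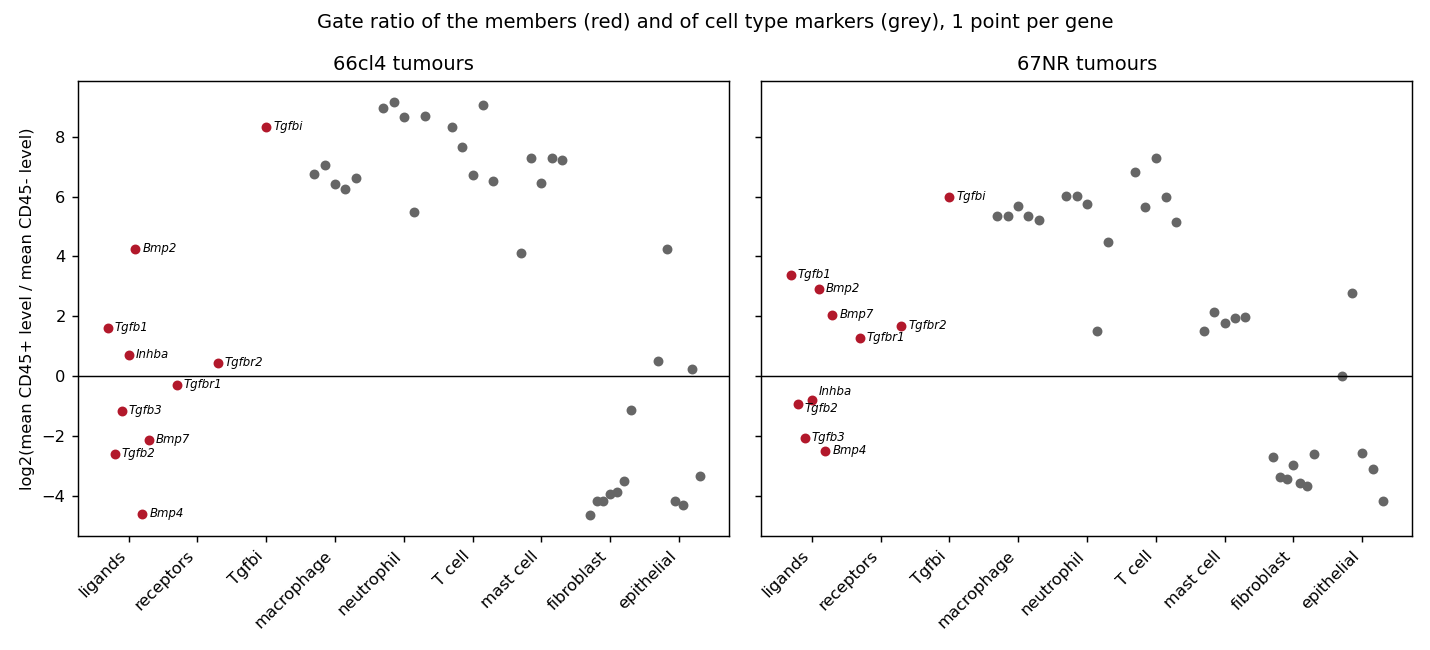
Log2 ratio of the mean level in CD45+ cells to that in CD45- cells for the members (red) and for marker genes of leukocytes, fibroblasts and epithelial cells (grey), in 66cl4 and 67NR tumours. A point is 1 gene, and genes at 0 in a gate have no point. Tgfbi lies among the leukocyte markers in both tumours. Bmp4 lies at the low end of the fibroblast markers in 66cl4 tumours, and also near the epithelial markers Krt8 and Krt18. In 67NR tumours its CD45+ level, from few counts, was 17.7% of the CD45- level. That is above the fibroblast markers (7.89 to 16.5%) and near Krt8 (16.9%).

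Levels of different members were compared per length, as TPM, transcript abundance scaled to the same sum in each library, from the median coding transcript length of each gene. In 66cl4 CD45- cells the leading members were Bmp4 (56.9 ± 5.29 TPM, SD, n = 5), Tgfbr1 (55.2 ± 2.56), Tgfb1 (51.3 ± 3.14) and Tgfbr2 (45.3 ± 6.08). Each of these overlapped its neighbour in the order, and all stood above Tgfb3 (10.5 ± 2.56 TPM). Inhba (2.95 TPM), Tgfb2 (1.29), Tgfbi (0.929), Bmp7 (0.505) and Bmp2 (0.114) followed, and Tgfb2, Tgfbi and Bmp7 overlapped in that order. In 67NR CD45- cells the order began with Tgfbr1 (22.1 ± 3.81 TPM), Tgfbr2 (20.3 ± 3.87), Tgfb1 (13.4 ± 3.84) and Tgfb3 (10.1 ± 2.41), again overlapping from each to the next. Bmp4 stood seventh, at 0.492 ± 0.252 TPM.

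CD45+ cells of both tumours shared the order of their 4 leading members. Tgfbi had 283 ± 110 TPM in 66cl4 and 186 ± 34.8 TPM in 67NR CD45+ cells (SD, n = 5), and Tgfb1 had 150 ± 23.0 and 137 ± 64.5 TPM. Tgfbr2 had 60.1 ± 11.9 and 63.3 ± 20.1 TPM, and Tgfbr1 had 43.8 ± 3.61 and 52.4 ± 1.36 TPM. The 6 other members were below 5 TPM on average in both groups. With lengths taken from the union of exons, Bmp4 led alone in 66cl4 CD45- cells at 77.8 ± 7.85 TPM, and Tgfbi, Tgfb1, Tgfbr2 and Tgfbr1 kept their order in CD45+ cells. The order of the leading members of 67NR CD45- cells changed with these lengths, to Tgfbr2 (23.0 TPM), Tgfb3 (16.3), Tgfbr1 (12.7) and Tgfb1 (9.35), again with overlap from each to the next.

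The share of the 3 isoforms in the summed TGF-beta TPM showed the same contrast from another side. Tgfb1 made up a median of 80.7% in 66cl4 CD45- cells (78.6 to 87.7%) and 59.4% in 67NR CD45- cells (48.0 to 60.8%). Tgfb3 made up 17.6% and 39.9%, and Tgfb2 made up 1.97% and 0.675%. In CD45+ cells Tgfb1 held 96.7% in 66cl4 and 98.4% in 67NR. The shares depend on the lengths. With the union of exons Tgfb1 fell to 64.8% in 66cl4 and 38.8% in 67NR CD45- cells, and Tgfb3 then led in 67NR CD45- cells with 60.4%. Under both lengths the share of Tgfb1 was higher in every 66cl4 than in every 67NR CD45- library.

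The rest of the pathway was read from 90 further genes in 7 lists, which hold other ligands, other receptors, genes of latency and activation, antagonists, SMADs with their regulators, TGF-beta targets and BMP targets. In CD45- cells 14 of the 56 genes tested were called higher in 66cl4 and 10 lower, where 13.2% of all genes were higher and 18.9% lower, and their median log2 fold change was 0.11. In CD45+ cells 5 of 49 were called higher and 5 lower, against 5.01% and 6.82% of all genes, with a median of 0.13. Between gates of 66cl4 tumours 10 of 53 were called higher and 23 lower in CD45+ cells (median -0.69), against 23.9% and 20.5% of all genes. Between gates of 67NR tumours 9 of 55 were called higher and 28 lower (median -1.05), against 20.2% and 19.6%. The interaction called 23 of 61, 10 of them positive and 13 negative, where 43.1% of all genes were called, 21.9% positive and 21.2% negative.

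**Figure D4:**
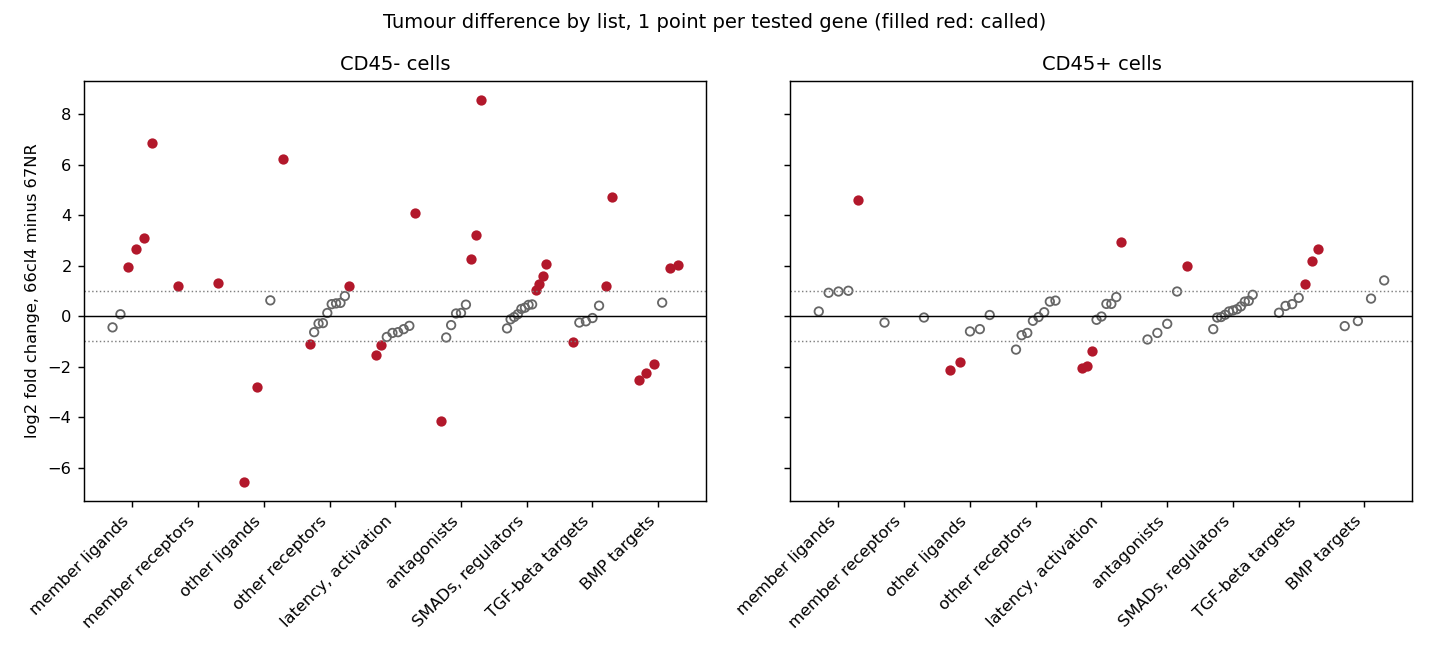
Log2 fold change, 66cl4 minus 67NR, of each tested gene of the member lists and the 7 pathway lists, in CD45- cells (left) and CD45+ cells (right). Filled red points were called, open points were not, and dotted lines mark an absolute log2 fold change of 1. In CD45- cells 24 of 56 pathway genes are filled, and in CD45+ cells 10 of 49.

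The counts per list in CD45- cells stand against the same background of 13.2% of all genes called higher and 18.9% lower. Among other ligands, 1 of the 4 tested in CD45- cells was called higher and 2 lower (median log2 fold change -1.10). Bmp5 had a mean of 145 normalised read counts in 66cl4 and 1.84 in 67NR CD45- cells (edgeR adjusted p = 2.16e-08). Gdf15, a stress-responsive member of the family, had 0.924 and 115 (adjusted p = 1.55e-07). For both genes the lower group had at most 5 counts per library, so the fitted fold has no firm size. In the receptor list 1 of 10 tested was called higher and 1 lower (median 0.29). Bmpr1b, a type I BMP receptor, had a log2 fold change of 1.17 (SE 0.402, edgeR adjusted p = 0.0189). Eng, an accessory receptor of endothelial cells, had -1.10 (SE 0.211, adjusted p = 0.000463), and 4 of the 5 endothelial markers were called lower as well, with summed levels of 488 to 961 in 66cl4, against 923 to 3695 in 67NR CD45- cells. Of the macrophage markers 2 of 5, and of the mast cell markers 5 of 5, were also called lower in 66cl4 CD45- cells. The mean level of Eng was higher in CD45+ than in CD45- cells, by 1.95-fold in 66cl4 and 1.44-fold in 67NR tumours. The part of these cell types in the Eng difference was not tested.

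The antagonist list, whose members bind ligands or block receptors outside the cell, had 3 of 9 called higher and 1 lower in CD45- cells (median log2 fold change 0.12), with 32.2% of all genes called. Grem1, a secreted binder of BMP2 and BMP4, had 186 to 271 normalised read counts in 66cl4 CD45- cells and at most 1 count in any 67NR CD45- library (edgeR adjusted p = 3.44e-11). Chrd, another BMP binder, went the other way, with at most 2 counts in any 66cl4 library and a mean of 11.7 in 67NR CD45- cells (adjusted p = 1.31e-05). Fst, which binds activin, had a log2 fold change of 3.19 (SE 0.261, edgeR adjusted p = 1.05e-07), and Bambi, a pseudoreceptor, had 2.25 (SE 0.327, adjusted p = 3.18e-05). Both of these were named after their values were seen. Of the latency genes 1 of 8 was called higher and 2 lower (median -0.65). Ltbp4, which ties latent TGF-beta to the matrix, rose by 4.08 (SE 0.206, edgeR adjusted p = 1.99e-09), whereas Nrros, a holder of latent TGF-beta on myeloid cells, had -1.54 (SE 0.537, adjusted p = 0.0256) with overlapping libraries. The macrophage marker sums given for Tgfbi apply to Nrros too.

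Of the SMADs and their regulators 4 of 12 tested were called higher in 66cl4 CD45- cells and none lower (median log2 fold change 0.39), where 13.2% of all genes were higher and 18.9% lower. The 2 named by size were Smad6, an inhibitory SMAD of the BMP branch (2.06, SE 0.206, edgeR adjusted p = 8.13e-07), and Skil, a SMAD co-repressor that the pathway also induces (1.58, SE 0.136, adjusted p = 1.75e-07). The other two, Smad7 (1.28, adjusted p = 2.11e-06) and Smad3 (1.02, adjusted p = 2.92e-07), were named after their values were seen. Among TGF-beta targets 2 of 7 were called higher and 1 lower (median -0.08). Ccn2, a matricellular gene, had a log2 fold change of 4.70 (SE 0.371, edgeR adjusted p = 1.14e-06), and Pmepa1, a feedback inhibitor, had 1.18 (SE 0.108, adjusted p = 3.25e-07). Acta2, the smooth muscle actin gene, was the lower one (-1.04, adjusted p = 0.0334).

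Of the BMP targets 2 of 6 tested were called higher and 3 lower in CD45- cells (median log2 fold change -0.70), where 13.2% of all genes were higher and 18.9% lower. Id1 (2.01, edgeR adjusted p = 3.92e-07) and Id2 (1.91, adjusted p = 1.8e-07), inhibitors of basic helix-loop-helix factors, were higher in 66cl4 and were named after their values were seen. Msx2, a homeobox gene, had -2.53 (SE 0.278, adjusted p = 2.17e-06), Atoh8 had -2.27 (SE 0.44, adjusted p = 0.000416) and Hey1, also named afterwards, had -1.92 (adjusted p = 0.00118). Id3 was not called (0.53, adjusted p = 0.178).

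In CD45+ cells the pathway genes called between tumours were fewer. Ltbp4 (2.93, SE 0.708, edgeR adjusted p = 0.013), Ccn2 (2.67, SE 0.621, adjusted p = 0.0104), Acta2 (2.18, SE 0.35, adjusted p = 0.00153) and Fst (2.00, SE 0.561, adjusted p = 0.0246) were higher in 66cl4. Ltbp1, a latent TGF-beta binding protein, was lower (-2.04, SE 0.469, edgeR adjusted p = 0.0114), as were Gdf15 (-2.15, SE 0.556, adjusted p = 0.0169) and Gdf9 (-1.81, SE 0.356, adjusted p = 0.00416). Ltbp2 (-1.99, SE 0.472, edgeR adjusted p = 0.0132) and Ltbp3 (-1.39, SE 0.288, adjusted p = 0.00601) were also called lower. They are genes of the same family as Ltbp1 and were named after their values were seen. The fibroblast marker sums ran lower in 66cl4 beside Ltbp1, Ltbp2 and Ltbp3, at 182 to 1308 in 66cl4, against 888 to 3780 in 67NR. Ltbp4 went the other way. Of the 7 fibroblast markers 3 were called lower, and Pdgfrb had a higher mean in 66cl4 (104, against 72.0). The part of fibroblasts in these differences was not tested. None of the 8 receptors, 11 SMADs and regulators or 4 BMP targets tested in CD45+ cells was called by edgeR. Acta2 thus had opposite signs in the 2 gates, and its interaction was 3.25 (SE 0.537, edgeR adjusted p = 8.26e-05).

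Between gates, several partners of the members were called in the same direction in both tumours. Nrros was higher in CD45+ cells by 7.09 in 66cl4 (SE 0.542, edgeR adjusted p = 2.43e-07) and 5.09 in 67NR tumours (SE 0.265, adjusted p = 2.67e-08) on the log2 scale. Tgfbr3, the coreceptor betaglycan, fell by 3.87 (SE 0.445, adjusted p = 8.04e-06) and by 2.83 (SE 0.381, adjusted p = 5.34e-05). Smad6 had -3.75 (SE 0.25, adjusted p = 4.51e-08) and -1.70 (SE 0.427, adjusted p = 0.00396), and Ccn2 had -5.00 (SE 0.38, adjusted p = 2.35e-07) and -2.98 (SE 0.605, adjusted p = 0.00105). The ligand genes Gdf3 and Lefty1 were found in CD45+ cells, with means of 196 and 33.5 normalised read counts in 66cl4 and 305 and 48.0 in 67NR tumours, against at most 6.02 in any CD45- group mean.

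Other genes named by size differed between gates of 66cl4 tumours. The BMP binder gene Bmper had a log2 fold change of -4.09 (SE 0.294, edgeR adjusted p = 8.28e-08), and Grem1 had -3.65 (SE 0.292, adjusted p = 2.09e-07). Id3 had -3.40 and Id1 had -2.68, and the receptor and signalling genes Bmpr1a and Smad3 had -3.21 and -2.12, all with an edgeR adjusted p of at most 5.02e-07. Cdkn2b, the gene of a cell cycle inhibitor, and Itgb8, the gene of an integrin subunit that releases TGF-beta, were higher in CD45+ cells, with means of 38.5 and 114 normalised read counts against 1.49 and 1.80 in CD45- cells. In 67NR tumours Bmper (-2.89), Hey1 (-2.95), Ltbp4 (-3.56) and the matrix gene Postn (-4.09) were lower in CD45+ cells. Id2 (3.13), Skil (1.45) and the endothelial type I receptor gene Acvrl1 (2.39) were higher. The edgeR adjusted p of these 7 genes was at most 0.00216.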

How the data were processed

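RNA of CD45+ and CD45- cells from 5 66cl4 and 5 67NR tumours was sequenced in 20 libraries. The authors sequenced poly(A)-selected libraries, estimated counts per transcript with Salmon 1.3.0 (bcl2fastq 2.2.20 is also listed in the submitters' processing notes), summed them to genes and deposited these estimated counts without normalisation. The notes name GRCh38, a human build, but the identifiers are those of mouse genes, and the mouse build is not given in the sources used here. Reads shared by similar genes are divided by the estimation.

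Before testing, values were rounded to integers, a change of at most 0.5. Groups follow the sample titles. The column of the 66cl4 CD45- library of animal 5 and its sample title differ in the last digit of the marker name and were matched by the rest. Each comparison was fitted on the whole table in R 4.3.3 with edgeR 4.0.16 (TMM, robust quasi-likelihood fit, and filterByExpr with its minimum count of 10 and total of 15), with only the compared groups in the fit. The standard error is the log2 fold change divided by the square root of F. Normalised read counts were scaled by DESeq2 1.42.0 size factors computed on all 20 libraries. TPM used reference transcript lengths (GENCODE vM21), and the 1291 genes without a length held 2.58% of counts. Plots were made in Python 3.11.15 with matplotlib 3.10.9.

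A count of 0 allows up to 3 counts, or 1.07e-05 to 2.31e-05% of a library. These limits cover counting error only. Every pair of replicates differed by more than sampling noise. On simulated counts with 200 genes changed by 2 on the log2 scale, the fits recovered 187 of them in the CD45- comparison (14844 genes), 181 in the CD45+ comparison (14676 genes) and 156 in the interaction (16453 genes), with 1.58, 2.69 and 3.7% of calls false. In the data 32.2, 11.8 and 43.1% of these genes were called, far more than were changed in the simulation. It therefore does not give the share of false calls in the data.

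Both gates of a tumour carry the same number in the titles and come from 1 mouse, which pairs them. Their deviations from the group means had correlations between 0.0251 and 0.148 in 66cl4 mice and between -0.00326 and 0.324 in 67NR mice. In each tumour type 4 of 10 libraries correlated best with their own number in the other gate.

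The genes named are the 10 members, the 2 called genes of each pathway list that changed most in each comparison of 2 groups and had a mean of at least 10 in the higher group, and the 3 genes most correlated with each member. Of these, 2 are not reported here. Genes named outside this rule are marked. The members and lists were chosen with earlier results of these data known. Alternative settings were RLE factors, the Wald test of DESeq2, no count filter, a filter of at least 10 counts in 5 libraries, a joint fit of the 20 libraries, a replicate block, omission of 66cl4 animals 5 and 6, omission of each library in turn and, for TPM, exon union lengths.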

Additional observations from a re-analysis of the deposited data

Results flagged for a closer look

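In 1 of the 40 sets of 5 libraries (10 members in 4 groups), a library lay far from the others by Dixon's criterion, where chance gives about 2. Bmp4 had 8.79 normalised read counts in 67NR CD45+ cells of animal 4, and 0 to 2.40 in the 4 other libraries of that group.

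The tumour difference was unequal in the 2 gates, by edgeR's interaction test over 20 libraries, for 7 members. Subtracting the log2 fold change in CD45- cells from that in CD45+ cells gave -4.13 for Bmp7, -1.78 for Tgfb1, -1.70 for Tgfb2, -1.57 for Tgfbr1, -1.23 for Tgfbr2, 2.32 for Tgfbi and 1.48 for Inhba. The sizes for Bmp7 and Tgfb2 rest on few counts in some groups. Among all genes tested 43.1% were called in this test.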

How the results depend on the processing

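Apart from fits that leave out a single library, 284 of 291 log2 fold changes of members kept their direction and their side of the threshold, 5 lost their call and 2 gained one. With each library left out in turn, 513 of 540 did, 14 lost a call, 10 gained one and 3 changed sign. All 14 losses were of Inhba in the interaction. The sign changes were of values near 0, Tgfb3 in CD45- cells without 66cl4 animal 4 (0.00, in a range of 0.00 to 0.20), and Tgfbr2 in CD45+ cells without 66cl4 animal 6 (0.01) or 67NR animal 7 (0.09, in a range of -0.16 to 0.09). The count of members called between tumours in CD45+ cells was 1, and it became 2 with at least 10 counts in 5 libraries, where Bmp7 entered the test, and 3 with all 20 libraries in the fit, where Tgfb2 and Bmp7 did. It ran from 1 to 3 with each library left out, 2 without 66cl4 animal 6 or 67NR animal 5 and 3 without 66cl4 animal 3 or 67NR animal 1, 4 or 7. Counts for the other comparisons ran from 7 to 7 in CD45- cells, 7 to 7 and 6 to 8 between gates of 66cl4 and 67NR tumours, and 6 to 8 in the interaction.

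The interaction of Inhba lost its call with no filter (1.42, adjusted p = 0.0926), with at least 10 counts in 5 libraries (1.37, adjusted p = 0.0519) and without 66cl4 animals 5 and 6 (1.02, adjusted p = 0.233). Without those 2 animals the members called were 7 in CD45- cells, 1 in CD45+ cells, 7 between gates of 66cl4 tumours and 6 in the interaction. The cause of these changes was not tested.

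With the replicate number as a block, no call of a member changed between the gates or in the interaction. Between tumours the number is only a name. There the correlations of deviations were -0.145 to 0.00874 in CD45- cells and 0.00594 to 0.0829 in CD45+ cells, and 0 of 8 and 1 of 8 libraries correlated best with their own number. The block gave 2 calls in CD45+ cells, with Bmp2 at 1.07 (adjusted p = 0.0328), and left Tgfbi uncalled in CD45- cells (-1.84, adjusted p = 0.0766).

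Depth limits Bmp2 in CD45- cells, Bmp7 throughout, and Tgfb2 and Bmp4 in 67NR CD45+ cells, where single libraries held few or no counts. The labels name the sorted cells only as immune or non-immune.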

Other observations

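The genes most alike each member in level over the 20 libraries were sought among 16452 other genes with Pearson's r of log2(normalised count + 1), as a description in which the libraries share depth, gate and tumour. Tgfbi was most like Nrros, Spi1 and Pirb (r = 0.997 for each), of which Spi1 codes for the myeloid transcription factor PU.1. Bmp4 was most like Prrx2 (0.987), a mesenchymal homeobox gene, Aldh3a1 (0.984) and Magea10 (0.983). Tgfb2 was nearest to Samd12 (0.972), Erc2 (0.967) and Nqo1 (0.96). Tgfb1 was nearest to Epn1 (0.99), Rin3 (0.988) and Tubb2a (0.987), and Tubb2a also led for Tgfbr2 (0.972), followed by Pctp and Ccnd2 (0.969 for each).

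Bmp2 was most like C5ar1 (0.949), a complement receptor gene, Timd4 (0.945) and the myeloid integrin gene Itgam (0.944). Tgfb3 was most like the syndecan gene Sdc1 (0.952), Actn1 (0.934) and Asns (0.932), and Tgfbr1 was most like Galc (0.977) and Net1 (0.962). The values were lowest for Inhba, with Gadd45a (0.9), Tnfaip2 (0.859) and Vegfa (0.826), and for Bmp7, with Enpp5 (0.875), Bbs9 (0.869) and Mrpl44 (0.863).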
